A study of Mus musculus with 4 samples.

Results

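The Peg3 imprinted domain of mouse chromosome 7 was described from 13 of the 97651 probes of a CpG island array. The members were all probes other than controls in the 150000 bp of chromosome 7 that end at position 6400000 in the files, and this window was chosen because its signal differs between Parp-1 deficient and wild type cells. The probes fall into 2 of the array's 14121 runs, or regions, in which neighbouring probes start at most 500 bp apart: a 9-probe run from 6333486 to 6334587 (1102 bp) and a 4-probe run from 6300350 to 6300691 (342 bp), 32794 bp away. These positions are taken as mm8, since the files name no build. The files also pair no gene with a probe, so the runs are called by their number of probes.

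There were 4 arrays of mouse embryonic stem cells: Parp-1 deficient clone 210-58, Parp-1 deficient clone 226-47, J1 cells treated with the PARP inhibitor PJ34, and untreated wild type J1 cells. Parp-1 is an enzyme of the nucleus that modifies proteins with chains of ADP-ribose, and PJ34 is an inhibitor of enzymes of this family. Both clones were made from J1, so all 4 arrays share that parent line. In this assay (MeDIP) an antibody against 5-methylcytidine precipitates methylated DNA (the IP), which carried Cy5, while whole DNA from the same cells carried Cy3 on the same array. Each clone is a single line, and neither the dose and duration of PJ34 nor whether the clones arose independently is given in the sources used here. The value of a probe is the log2 ratio of IP to whole DNA, centred on the median of each array, and the value of a run is the mean over its probes. A value of 0 is therefore the level of a typical probe, and 1 unit is a doubling of the ratio.

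Imprinted genes are expressed from the copy inherited from one parent. In the Peg3 domain the CpG island shared by the divergent promoters of Peg3 and Usp29 is methylated on the maternal copy from the oocyte onwards, and both genes are expressed from the paternal copy. Peg3 encodes a zinc finger protein known for its roles in growth and maternal behaviour in the mouse, and Usp29 encodes a ubiquitin-specific protease. In the RefSeq gene table (GRCm38.p6), Zim1 and then Zim2 follow Peg3 towards lower positions. Usp29 and then Zim3 lie in the other direction, and the antisense gene Peg3os lies within the span of Peg3. Zim1 encodes a further zinc finger protein, expressed from the maternal copy in the mouse. MeDIP does not separate the parental copies, so a value here is the sum over both, and fewer methylated cells cannot be told apart from less methylation per cell.

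The promoters of Peg3 and Usp29 are shown because they hold the cytosines that an antibody against methylated DNA can meet at an island of this domain. Each sequence runs from 250 bases before to 50 after the gene's start in the RefSeq promoter table, and of the 7 genes looked up in it 4 matched (Peg3, Usp29, Zim1 and Zim2). Capitals mark CG dinucleotides. Peg3 is read from the minus strand at chr7:6730370-6730669 and Usp29 from the plus strand at chr7:6730333-6730632, both in GRCm38.p6.
Peg3: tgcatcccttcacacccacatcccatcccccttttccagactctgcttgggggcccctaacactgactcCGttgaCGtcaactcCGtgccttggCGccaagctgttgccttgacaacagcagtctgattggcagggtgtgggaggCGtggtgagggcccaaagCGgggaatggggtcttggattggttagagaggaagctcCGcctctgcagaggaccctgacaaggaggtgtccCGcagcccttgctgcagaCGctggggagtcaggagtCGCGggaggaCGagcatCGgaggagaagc
Usp29: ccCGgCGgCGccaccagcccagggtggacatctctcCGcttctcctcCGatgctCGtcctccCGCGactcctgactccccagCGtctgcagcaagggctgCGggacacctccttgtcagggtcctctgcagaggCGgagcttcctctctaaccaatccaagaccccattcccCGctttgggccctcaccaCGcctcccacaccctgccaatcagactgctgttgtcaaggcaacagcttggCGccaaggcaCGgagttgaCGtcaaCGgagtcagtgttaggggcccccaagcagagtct
The sequences are reverse complements of each other over 263 of their 300 bases, and the starts the table uses are 164 bp apart and point away from each other. Peg3 has 13 CG dinucleotides in this window and Usp29 has 17, against a median of 7 over the 32851 promoters of the table. Zim1 has 20 and Zim2 has 9. The motif GCCATNTT of the factor YY1, which is known to bind the Peg3 island downstream of the promoter, was searched on both strands and has no match in these windows, while 6.05% of all promoters hold one. The cyclic AMP response element TGACGTCA, which carries a CG at its centre and was chosen after the sequence had been seen, occurs once in the shared stretch and in 1.79% of all promoters. A match is a match of letters and not a measured site. Because the array positions and the table are of different builds, no single probe was placed on these sequences.

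The 9-probe run was strongly enriched in the IP of wild type cells and near the bottom of the array in both clones. Its mean was -1.60 in clone 210-58 and -1.13 in clone 226-47, against 3.49 in wild type cells. The clones averaged -1.37 ± 0.34 (SD, n = 2), a difference from wild type of -4.85, so the ratio of IP to whole DNA in the clones was 3.47% of that in wild type cells. The gap between clones and wild type was far larger than the gap between the clones, which differed by 0.47. The share of the 14121 regions with a lower value than this run was 4.57% in clone 210-58 and 2.46% in clone 226-47, but 95.8% in wild type cells. This is the contrast for which the domain was chosen, so these values are a description without a test. With normexp background correction the difference was -2.95 and with intensity loess -2.98.

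**Figure D1:**
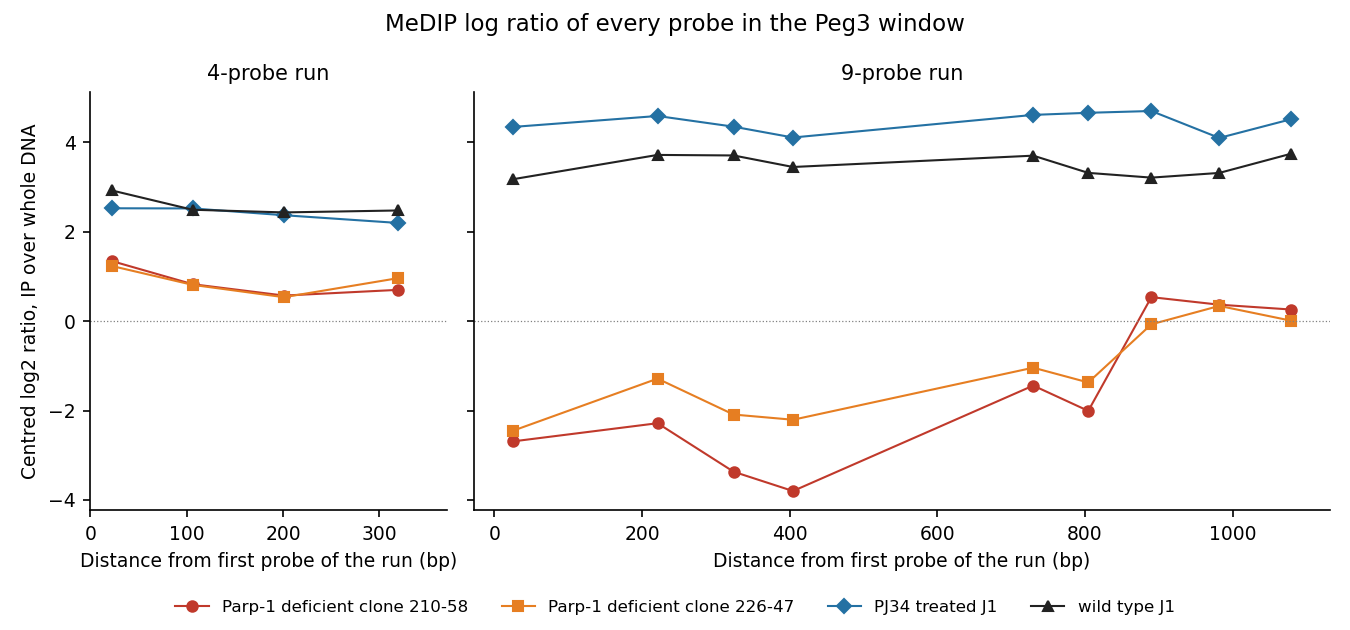
Centred log2 ratio of IP to whole DNA (y axis) of each of the 13 probes against the distance of the probe's centre from the start of its run in bp (x axis), with the 4-probe run on the left and the 9-probe run on the right and 1 line per array. Wild type stays between 3.18 and 3.75 along the 9-probe run, while the clones step from values of -1.04 or lower to values between -0.070 and 0.54 at the last 3 probes.

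Along the 9-probe run the wild type profile was flat and those of the clones were not. At the first probe, from 6333486 to 6333537, the log2 ratio was -2.69 in clone 210-58 and -2.45 in clone 226-47, against 3.18 in wild type cells. Its Cy5 signal was not well above background in clone 210-58. At the next, from 6333685, the values were -2.28 and -1.28 in the clones, against 3.72 in wild type cells. The probe from 6333788 had -3.37 and -2.09 in the clones, against 3.71 in wild type cells. In each of these the clones lay below the typical probe of their array by more than 1 unit. The probe from 6333864 to 6333917 was the lowest in clone 210-58, with -3.80, and stood at -2.21 in clone 226-47, against 3.45 in wild type cells. Its Cy5 signal was not well above background in either clone, so its measured difference has only a bound: with the lowest signal that counts as above background in each clone, the wild type ratio was at least 33.9-fold higher. Of the 9 probes, 6 had Cy5 well above background in clone 210-58 and 8 in clone 226-47, whereas all 9 did in wild type cells. Over the 6 probes well above background on every array the difference of the clones from wild type was -4.41.

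The next probes of the run were higher in the clones than most of those before. The probe from 6334194 had -1.44 in clone 210-58 and -1.04 in clone 226-47, against 3.71 in wild type cells. At 6334268 the values were -2.01 and -1.37 in the clones, against 3.32 in wild type cells, and Cy5 was not well above background in clone 210-58. The last 3 probes, from 6334354 to 6334587, stood near the typical probe of the array in both clones. The first of them had 0.54 and -0.070 in the clones, against 3.21 in wild type cells. The probe from 6334446 had 0.37 and 0.34 in the clones, against 3.32 in wild type cells, and that from 6334543 had 0.26 and 0.013, against 3.75 in wild type cells. Over these 3 probes the ratio in the clones was between 8.19% and 12.8% of that in wild type cells, and over the 3 probes at lower positions with Cy5 well above background in both clones between 1.15% and 3.25%. The split of the run at 6334354 was made after the values had been seen. All 9 probes were lower in both clones than in wild type cells, as were 33.5% of all probes of the array. The clones followed the same profile, with a Pearson correlation of 0.957 over the 9 probes, which share their base composition and whole DNA level on every array, and clone 210-58 was the higher of the pair at the last 3 probes.

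The 4-probe run was also lower in the clones, but kept part of its enrichment. Its mean was 0.86 in clone 210-58 and 0.89 in clone 226-47, against 2.58 in wild type cells. The clones averaged 0.88 ± 0.018 (SD, n = 2), a difference of -1.71, which leaves a ratio of 30.6% of that in wild type cells. With intensity loess this difference was -1.11. The probe from 6300350 was the highest of the run, with 1.35 and 1.24 in the clones and 2.93 in wild type cells. The one from 6300434 had 0.83 and 0.81 in the clones, against 2.49 in wild type cells. At 6300529 the values were 0.57 and 0.54 in the clones, against 2.43 in wild type cells. The differences were thus nearly even along this run, from -1.88 to -1.64, where those of the 9-probe run spanned -6.44 to -2.96 over its 6 probes well above background on every array. The last probe, from 6300647, had 0.70 and 0.96 in the clones, against 2.48 in wild type cells. In the clones this run still lay above 76.5% (210-58) and 82.5% (226-47) of all regions, against 92.9% in wild type cells. All 4 probes had Cy5 well above background on every array, so this run is less affected by dim signal than the 9-probe run.

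Both runs were among the regions called by limma in a fit over the whole array that set the clones against wild type, at a Benjamini-Hochberg adjusted p of 0.05, which called 2.78% of regions in either direction and 1.59% as lower in the clones. As the domain was chosen from this contrast, nothing is read from that count. By the size of the difference the 9-probe run was the lowest of the 14121 regions and the 4-probe run stood at place 34. The first place includes dim probes: over its 6 probes well above background on every array the 9-probe run was at -4.41, beside -4.46 over all probes of a region on chromosome 11 from 22872000. After quantile normalization the 4-probe run was no longer called (limma adjusted p = 0.0548), and after intensity loess neither run was (limma adjusted p = 0.0702 and 0.317 for the 9-probe and the 4-probe run).

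**Figure D2:**
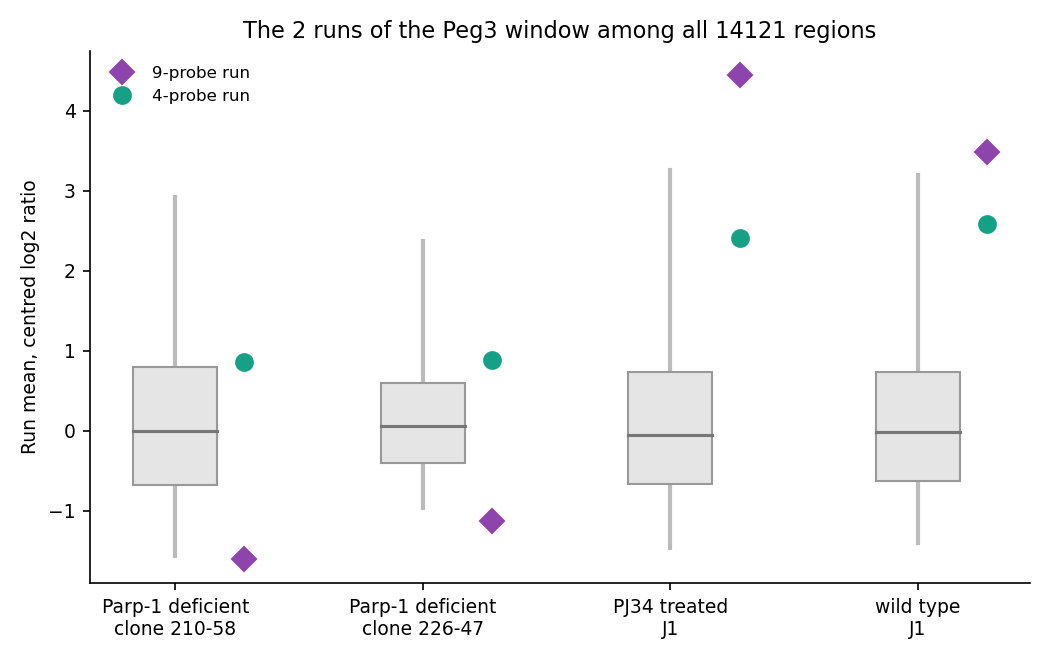
Mean centred log2 ratio (y axis) of the 9-probe run (diamonds) and the 4-probe run (circles) on each of the 4 arrays (x axis), beside all 14121 regions of that array (box: quartiles and median; line: 5th to 95th percentile). The 9-probe run lies at -1.60 and -1.13 in the clones, at 4.45 after PJ34 and at 3.49 in wild type cells, while the 4-probe run keeps values above the upper quartile of all regions on every array.

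In PJ34 treated cells neither run was low. The 9-probe run had a mean of 4.45 after PJ34, against 3.49 in wild type cells, a difference of 0.96 or a 1.95-fold higher ratio. All 9 of its probes were higher after PJ34, as were 53.8% of all probes, with differences of 0.64 to 1.49. The largest difference was at the probe from 6334354, with 4.70 after PJ34 and 3.21 in wild type cells. There PJ34 minus wild type was 1.09 in centred Cy5 and -0.40 in centred Cy3. The smallest was at the probe from 6333788, with 4.35 after PJ34 and 3.71 in wild type cells. The run missed the size of 1 on the log2 scale that 3.70% of regions passed in either direction. Its difference was larger than that of 97.3% of all regions, whatever their level in wild type cells. Its rank among regions equally high in wild type cells was not counted. The nearest region above the window, at 4.63 in wild type cells, differed by 0.88 after PJ34 and the nearest below by 0.061. Regions at 2 or above in wild type cells had a median difference of 0.17 after PJ34 (1404 regions), against -0.012 over all regions. The size of the difference depended on the processing, at 0.60 with quantile normalization, 0.45 with intensity loess and 0.45 with scaling by the median absolute deviation. There is 1 array on each side, on different slides, so treatment and slide cannot be told apart and no p-value is given.

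The 4-probe run stood at 2.41 after PJ34, against 2.58 in wild type cells. Its difference of -0.18 comes from 3 probes that were lower after PJ34 and 1 that was higher, between -0.40 and 0.029, and ran from -0.45 to -0.039 over the other settings. By run means the order of the arrays differed between the runs. In the 9-probe run it was clone 210-58, clone 226-47, wild type and PJ34 from low to high, and in the 4-probe run clone 210-58, clone 226-47, PJ34 and wild type. In the 4-probe run the gap of 0.025 between the clones is small beside the gap of 0.18 between the J1 arrays, for which no replicate exists. Clone 210-58 had the lower mean there although it was the higher of the clones at 3 of the 4 probes. In that run PJ34 minus wild type was -0.053 in centred Cy5 and 0.12 in centred Cy3. Set side by side, the 9-probe run differed from wild type by -4.85 in the clones and by 0.96 after PJ34, and the 4-probe run by -1.71 and -0.18. These pairs of differences share the single wild type array.

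Wild type and clone 210-58 lay on 1 slide and clone 226-47 and PJ34 treated cells on the other. Within the first slide the 9-probe run differed by -5.09 between clone 210-58 and wild type cells, and the 4-probe run by -1.72. Within the second slide the difference between clone 226-47 and PJ34 treated cells was -5.57 in the 9-probe run and -1.52 in the 4-probe run. A fit with slide as a term gives the first slide's difference and leaves no residual degree of freedom.

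The clones stood apart in the Cy5 channel, which holds the IP DNA, while the Cy3 signals of whole DNA differed less between clones and wild type. At the probe from 6333788 the processed Cy5 signal was 99.1 in clone 210-58, 215 in clone 226-47, 17059 in PJ34 treated and 11381 in wild type cells. The Cy3 signal of the same probe was 1310, 1132, 1081 and 1045 on these arrays. Over the probes of both runs, centred log2 Cy3 differed from wild type by -0.27 to 0.41 in the mean of the clones. After PJ34 it differed by -0.40 to 0.22. Over the 9 probes Cy5 ran from 17.6 to 1709 in clone 210-58 and from 49.2 to 1895 in clone 226-47, against 2483 to 13673 in wild type cells. In the 9-probe run the ranges of the clones and wild type did not overlap. Cy5 is the numerator of the ratio for which the domain was chosen, so nothing is read from this. The share of all regions without such overlap was not counted. In the 4-probe run Cy5 ran from 572 to 2310 and from 587 to 2865 in the clones, against 2062 to 6359 in wild type cells, so its ranges overlapped between probes. At each of its probes the clones were nevertheless below wild type.

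The Cy3 signal is the denominator of the ratio for which the domain was chosen, so its values too are given as a description without a test. The log2 of processed Cy3, centred on each array's median, averaged -0.15 in clone 210-58 and -0.15 in clone 226-47 over the 9-probe run, against -0.22 in wild type cells. The difference was 0.064, and both clones lay above wild type. Over the 4-probe run the clones had -0.13 and -0.11 and wild type cells -0.29, a difference of 0.17. PJ34 treated cells were at -0.25 in the 9-probe run and -0.16 in the 4-probe run. For Cy3 limma called 0.00708% of all regions and neither run, from which nothing is read.

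**Figure D3:**
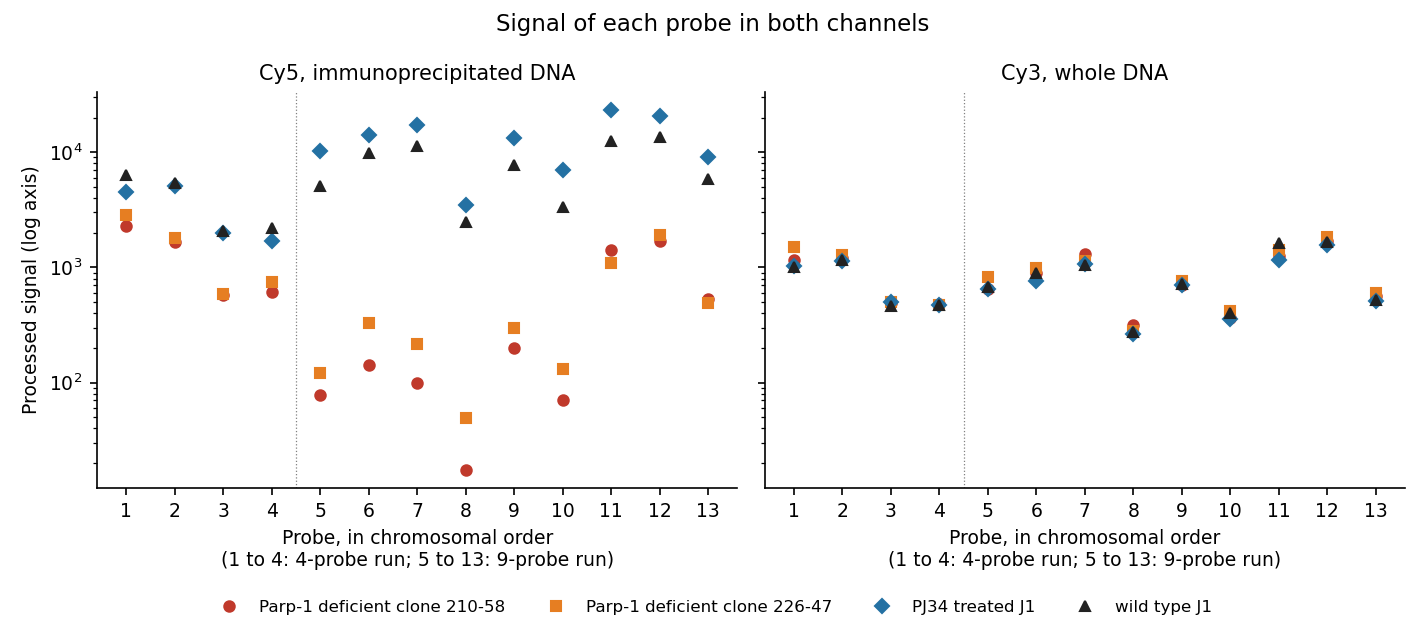
Processed signal on a log axis (y axis) of the 13 probes in chromosomal order (x axis) in the Cy5 channel with the IP DNA (left) and the Cy3 channel with whole DNA (right), with 1 symbol per array. In Cy5 the clones lie below PJ34 treated and wild type cells at every probe, down to 17.6 against 2483 in wild type cells. In Cy3 the 4 arrays lie closer together.

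Beyond the window the nearest regions on either side did not show a fall in the clones like those in the window. There the clones differed from wild type by 0.083 below the window and by -0.35 above it. The run from 5986898 to 5987651, 345834 bp below the 9-probe run, lay less than 1 unit below the typical probe on every array. It had -0.53 in clone 210-58, -0.17 in clone 226-47, -0.37 after PJ34 and -0.44 in wild type cells. The run from 6581237 to 6581606, 246649 bp above the 9-probe run, was high on every array. It had 4.67 and 3.88 in the clones, 5.50 after PJ34 and 4.63 in wild type cells. After PJ34 it differed from wild type by 0.88, close to the 0.96 of the 9-probe run. The run below the window differed by 0.061. The window's limits do not cut through a run: the nearest probe below it, from 5987600, had -0.46 and -0.38 in the clones and 0.11 in wild type cells, and the nearest above, from 6581237, had 4.68 and 3.68 in the clones and 4.49 in wild type cells. Over all regions the median difference of the clones from wild type was 0.013, and over regions at 2 or above in wild type it was -0.43.

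The 5 regions nearest to the 9-probe run were taken by Euclidean distance over the values of the 4 arrays. All were high in both J1 arrays and much lower in both clones. The nearest, at a distance of 0.959, lay on chromosome 11 from 22872000 to 22873052. It had -1.98 in clone 210-58 and -1.16 in clone 226-47, 3.80 after PJ34 and 2.89 in wild type cells. It was followed by chromosome 17 from 12584752 to 12585952 at a distance of 1.53, chromosome 2 from 173940167 to 173940489 at 1.92 and from 173941465 to 173943988 at 1.94, and chromosome 11 from 11925467 to 11926345 at 1.95. In these 4 the clones lay between -0.57 and 0.11, around or below the level of a typical probe. That is above the -1.60 and -1.13 of the 9-probe run. All 5 were higher after PJ34 than in wild type cells, by 0.36 to 1.003. The regions were picked for likeness on these same arrays, PJ34 and wild type included. Nothing is therefore read from the directions they share with the 9-probe run. The likeness is measured over 4 arrays, and no gene is named for these regions because the files pair none with a probe.

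**Figure D4:**
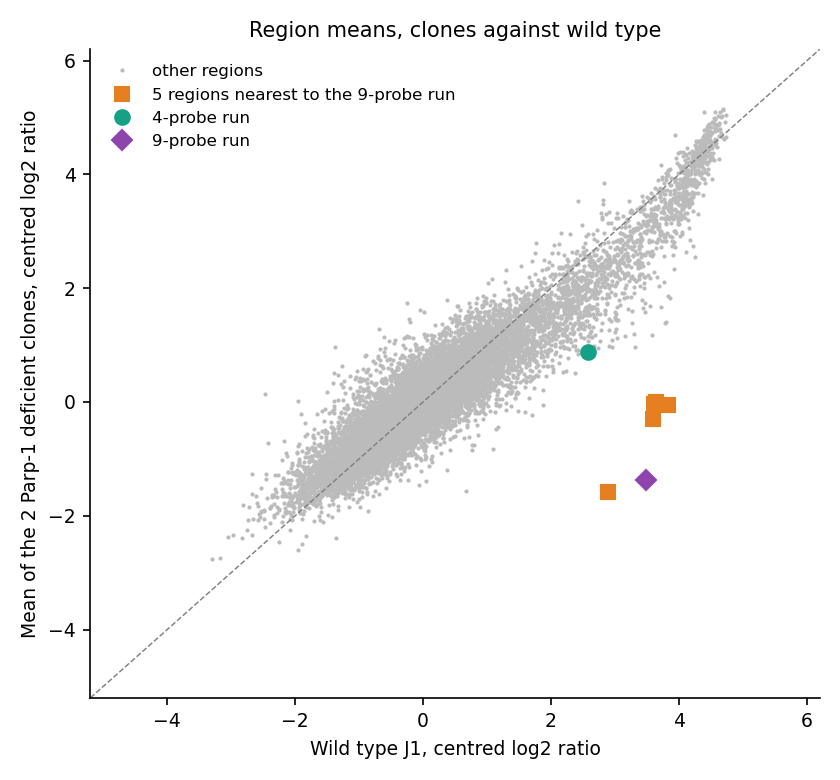
Mean centred log2 ratio of the 2 clones (y axis) against wild type (x axis) for all 14121 regions, with equal values on the dashed line. The 9-probe run (3.49 in wild type cells, -1.37 in the clones) and the 5 regions nearest to it lie apart below the other regions, and the 4-probe run (2.58 in wild type cells, 0.88 in the clones) lies at the lower edge of the main cloud.

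The arrays were alike in brightness but not in the width of their profiles. Median raw Cy3 signals were 292 to 310 and median raw Cy5 signals 133 to 154.5, and Cy5 was well above background for 91.3% to 98.0% of probes. The interquartile range of the region values was 0.999 in clone 226-47 and 1.37 to 1.48 on the other 3 arrays, and clone 226-47 had the less extreme value of the clones in the 9-probe run. Whether that narrower profile has a part in the gap between the clones was not tested.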

How the data were processed

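Per the labels' protocols, genomic DNA was sonicated, in part immunoprecipitated, and labelled with Cy5 (IP) or Cy3 (whole DNA). The deposited intensity of each spot is background-subtracted and dye-normalized by Agilent Feature Extraction 10.7.3.1, per the file headers (9.1 in the submitters' processing notes). The deposited value table holds the linear ratio of processed Cy5 over Cy3, not centred, and served as an alternative. No dyes were swapped.

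Of 97651 probes, 442 without a position and 30 with an outlier flag were left out of runs, none of them in the Peg3 window, and no probe was saturated. Log ratios were centred on each array's median without loess or quantile steps. Runs needed at least 3 probes, which gave 14121 regions. limma 3.58.1 in R 4.3.3 (lmFit, eBayes with a mean-variance trend) compared the clones with wild type over all regions. With 1 residual degree of freedom, its p-values rest on the spread between the 2 clones, which eBayes draws towards the spread over all regions. The p-values assume that wild type varies alike. The fit was tested on simulated data. The same fit was planned as a test of Cy3 in the members, but Cy3 is part of the ratio that chose them, so those values are given as a description. The number of arrays limits the precision.

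The members and lists were chosen with earlier results of these data known. All probes of the window and the 5 nearest regions were named by rule. A list of other imprinted genes was not used, since no table of the files' build ties probes to genes. For that reason the Parp1 locus was not analysed here.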

Additional observations from a re-analysis of the deposited data

How the results depend on the processing

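The difference of the clones from wild type was below 0 in all 25 recomputed values of the 2 runs. PJ34 minus wild type kept its sign in all 7 recomputed values of each run. Some of these repeat the reported value because the setting changed nothing there. For the clones these were the deposited ratios and gaps of 1000 bp, and in the 4-probe run also gaps of 250 bp. Restricting the 4-probe run to probes well above background changed neither comparison. In the 9-probe run the difference of the clones was -2.95 with normexp, -2.98 with intensity loess and -4.41 over probes well above background on all arrays. Runs ending at gaps of 250 bp split it into 4 probes at -6.04 and 5 probes at -3.90. In the 4-probe run the difference was -1.20 with normexp, -1.61 with quantile normalization, -1.11 with intensity loess, -1.62 with scaling by the median absolute deviation, -1.66 with medians over probes and -1.74 with centring on chromosome 7. Leaving out either clone gave -5.09 and -4.61 in the 9-probe run and -1.72 and -1.70 in the 4-probe run. PJ34 minus wild type in the 9-probe run was 0.60 with quantile normalization, 0.45 with intensity loess and 0.45 with scaling by the median absolute deviation. In the 4-probe run it was -0.13 with normexp, -0.35 with quantile normalization, -0.31 with intensity loess, -0.45 with scaling and -0.039 with medians over probes. The Cy3 differences stayed above 0 in all 10 recomputed values, 4 of which leave out a clone and have no test. Those without the trend repeat the reported differences, since that setting cannot change them. All 13 probes were lower in both clones with normexp, quantile normalization and intensity loess too.

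Over the array, limma called 393 regions for clones against wild type, 182 without the trend, 27 when quantiles were equalised and 0 after loess on intensity (1891 at an unadjusted p under 0.05). For Cy3 it called 1 region (949 at an unadjusted p under 0.05), 25 with normexp, 0 without the trend (861) and 0 with centring on chromosome 7 (837). The size of 1 was passed after PJ34 by 522 regions, 99 with normexp, 65 with intensity loess, and a size of 0.5 by 3196. The cause of these changes was not tested. No paired analysis was possible because wild type and PJ34 treated cells have 1 array each, on different slides. A slide block left no residual degree of freedom. Cy5 near background limits the size of the difference at 3 of the 9 probes.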
